A study of Mus musculus with 12 samples.

Results

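The late step of mTOR inhibition in mouse embryonic stem (ES) cells without the de novo DNA methyltransferases was described here, as 144 against 72 h of treatment. The members were the 4 libraries that the labels give as the E14 DNMT3ABKO line at 72 h (2 libraries) and at 144 h (2 libraries), of 12 libraries in the series. DNMT3ABKO cells carry a knockout of Dnmt3a and Dnmt3b, and every culture at 72 and 144 h was treated with Ink128 (INK128 in the methods), an inhibitor of the mTOR kinase (mTORi). The other 8 libraries were DNMT3ABKO cells at 0 h and the wild-type KH line at 0, 72 and 144 h, with 2 libraries each. Both lines carry E14 in their labels although the methods call the wild type KH2, so the parental background of the comparison is not certain. Each genotype was 1 line, no untreated culture was sampled at 72 or 144 h, and an effect of the inhibitor therefore cannot be told apart from one of time in culture. Per the methods, KH2 and Dnmt3a/b knockout cells grew on mitotically inactivated fibroblast feeders, and RNA came from sorted viable single cells.

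The mTOR kinase couples amino acid and growth factor supply to protein, lipid and nucleotide synthesis and restrains autophagy and lysosome biogenesis. Its inhibition places ES cells in a slowly dividing, still pluripotent state that resembles the dormancy of a diapaused blastocyst. Dnmt3a and Dnmt3b write new methyl groups on cytosines, and in ES cells methylation of promoters holds down germline genes and, with other layers of chromatin, retroelements and genes of the cleavage-stage embryo. Dnmt1 can still copy existing methylation in such cells, which the paper describes as lacking the machinery for de novo methylation. Methylation itself was not measured in these libraries.

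Values were TPM (transcripts per 1000000), which are shares of each library, so a change in the total RNA of a cell is not seen, and in a bulk sample fewer cells of a type and less RNA per cell cannot be told apart. TPM keeps no read depth, and the depth is therefore unknown. Tests were made on log2(TPM + 1) with limma for the 15774 of 54446 genes whose average over these 4 libraries reached 1 TPM. A fold change is given on that log2 scale, which understates changes of low genes, and calls were made at an adjusted p (Benjamini-Hochberg) under 0.05. With 2 libraries a group, both values are given in place of a standard deviation. The study's reporting summary states that experiments were repeated independently and that the time points of a replicate were handled in parallel, but the labels do not tie a library to a culture, so the p-values measure the spread between these libraries, whether it lies between cultures or is technical. Both libraries of a time had 15596 to 15811 genes of at least 1 TPM, and the residual standard deviation between replicates was 0.141 at 72 h and 0.15 at 144 h. DNMT3ABKO cells at 0 h, which enter the shared estimate of the spread, had the largest value (0.267), and 5946 genes were called in the late step without that group, an alternative chosen after seeing the data.

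Between 72 and 144 h, 4432 genes were called in DNMT3ABKO cells, or 28.1% of those tested. Of these, 1604 (10.2%) were higher and 2828 (17.9%) lower at 144 h. The counts of called list members below are to be read beside these shares of all genes, and a count near them sets no list apart. The median over all tested genes was -0.056, and 450 higher and 393 lower genes moved by at least 1. Under median-ratio scaling the split became 2723 higher and 2668 lower genes, so that 50.5% of calls were higher in place of 36.2%. The median of all genes then went from -0.056 to 0.012. The medians of 42 of 54 gene lists moved by more than the spread between libraries. The counts of calls in 15 of the 54 changed by more than 1.5 times, or to or from 0. The direction of a list median close to 0 is therefore uncertain. Of the 4432 genes, 521 (258 higher and 263 lower) averaged under 1 TPM at one of the times and passed the filter through the other time alone, so their calls are no support for a change. The list counts below include such calls. There was 1 each in the Rhox, mesoderm and definitive endoderm, primitive endoderm, trophoblast and DNA methylation lists. The Atf4, lysosome, LIF and STAT3, interferon and Platr lists also held 1 each. Leaving out 1 library of the step gave 2825 and 2938 calls without the first and second 72 h libraries and 2899 without the first 144 h library, against up to 5950 without the second library of DNMT3ABKO cells at 0 h. In KH cells, whose late step shares no library with that of DNMT3ABKO cells, 3398 genes (21.5%) were called, 1113 (7.06%) higher and 2285 (14.5%) lower. The difference between the lines, the fold change in DNMT3ABKO cells minus that in KH cells, was called for 1035 genes (6.56%), 654 (4.15%) with a higher and 381 (2.42%) with a lower step in DNMT3ABKO cells. This split depended on the filter, which used DNMT3ABKO libraries only. Of the 1035 genes, 423 (404 higher and 19 lower) averaged under 1 TPM in the KH libraries of 72 and 144 h, and with the same minimum in both lines, an alternative chosen after seeing the data, the difference was called for 399 genes, higher for 154 and lower for 245. Between 621 (without the second 72 h library of KH cells) and 1712 genes (without the first of DNMT3ABKO cells at 0 h) differed when 1 library was left out. Most of the 654 (464) were called higher in DNMT3ABKO cells and not called in KH cells, and 68 were not called in DNMT3ABKO cells and lower in KH cells. Among the 381, the largest group (197) was lower in DNMT3ABKO cells and not called in KH cells. Of the 2828 genes that fell, 1527 were also called lower in KH cells, against 526 of the 1604 genes that rose and were also called higher there.

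**Figure D1:**
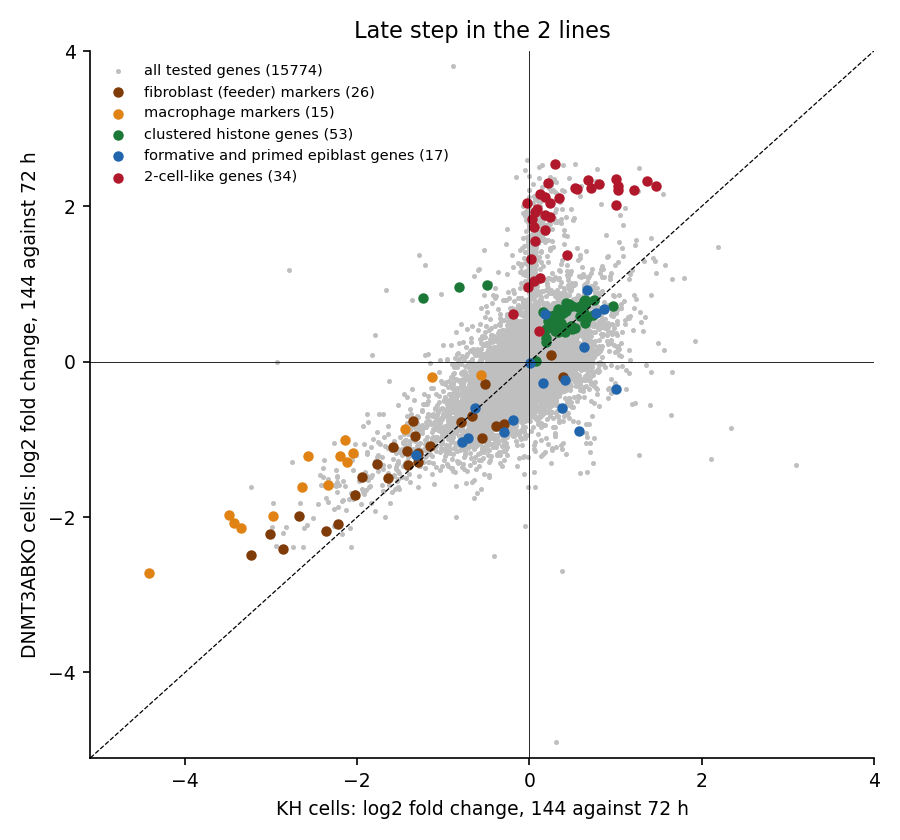
Each point is a tested gene, with its log2 fold change at 144 against 72 h in KH cells on the horizontal and in DNMT3ABKO cells on the vertical axis, and the dashed line marks equal steps in the 2 lines. The 34 2-cell-like genes lie above the line on this log2(TPM + 1) scale, on which KH values under 1 TPM are compressed. The 15 macrophage markers and most of the 26 fibroblast markers lie in the lower left, with 1 fibroblast marker above 0 in DNMT3ABKO cells and 2 in KH cells, and most of the 53 histone genes lie to the upper right of the origin, with 3 below 0 in KH cells.

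The targeted genes were inspected first. Dnmt3a was detected in DNMT3ABKO cells at 14.4 and 10.2 TPM at 72 h and 21.9 and 16.9 TPM at 144 h, against 62.7 and 59.1 TPM and 76.3 and 144 TPM in KH cells. All DNMT3ABKO libraries of both times lay below all KH libraries, and the late fold change of 0.62 in DNMT3ABKO cells was not called (adjusted p = 0.134). Dnmt3b stood at 25.9 and 24.1 TPM at 72 h and at 12.7 and 13 TPM at 144 h in DNMT3ABKO cells, against 181 and 173 TPM and 142 and 147 TPM in KH cells. It fell by 0.91 (SE 0.062, adjusted p = 4.04e-06), and the step was lower than that in KH cells by a difference of -0.62 (adjusted p = 0.00189). Gene-level TPM does not show which exons the remaining RNA covers, so these values check the labels and not the loss of protein.

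The libraries were those of ES cells by their defining markers. Pou5f1, the central pluripotency factor, was at 1090 and 1110 TPM at 72 h and 1070 and 1020 TPM at 144 h, with a fold change of -0.067 (adjusted p = 0.487). Sall4, a zinc finger partner of Pou5f1, was at 275 and 279 TPM and 275 and 268 TPM, and Zfp42, a marker of undifferentiated cells, at 256 and 258 TPM and 282 and 287 TPM. None of these genes was called, although Zfp42 was called higher under median-ratio scaling (0.222, adjusted p = 0.00353, limma). The other ES cell markers chosen, Sox2, Nanog and Esrrb, were called higher and are described with the pluripotency genes.

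Markers of other cell types changed over the same step and are given first. Of the 26 tested fibroblast markers, 23 fell and none rose in DNMT3ABKO cells, with a median of -1.16. Their summed level was 1295 and 1238 TPM at 72 h and 609.2 and 591.9 TPM at 144 h. Col1a1, the main fibrillar collagen chain, went from 60.8 and 57.5 TPM to 10.7 and 9.85 TPM, and it fell by 2.42 (SE 0.12, adjusted p = 8.66e-07). Lox, which crosslinks collagen, went from 82.2 and 67.4 TPM to 12.7 and 12.1 TPM and fell by 2.49 (adjusted p = 2.29e-06). Other genes of matrix and of spread, adherent cells were among the 8 named genes with the lowest fold change. Thbs1, a secreted matrix glycoprotein, fell by 2.39 from 342 and 311 TPM to 66.3 and 57.3 TPM, Col12a1, a fibril-associated collagen, fell by 2.38, and Cav1, the coat protein of caveolae, fell by 2.37. In KH cells 23 fibroblast markers fell and 1 rose, with a median of -1.38.

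Smooth muscle and macrophage markers moved the same way. Of 11 smooth muscle and myofibroblast markers, 10 fell and 1 rose (median -1.29), and their sum went from 671.3 and 604.8 TPM to 224.3 and 225.7 TPM. Acta2, smooth muscle actin, fell by 2.13 from 183 and 163 TPM to 40.0 and 37.6 TPM (adjusted p = 6.87e-07), a smaller fall than in KH cells (difference 0.86, adjusted p = 0.00287). The riser was Smtn, a cytoskeletal protein, with a fold change of 0.26, whose call was lost without the first or second 72 h library (adjusted p = 0.0627 and 0.0749) or the second 144 h library (0.0999) of DNMT3ABKO cells. Of 15 macrophage markers, 13 fell and none rose (median -1.29), and their sum went from 183.1 and 186.2 TPM to 63.17 and 60.29 TPM. Lyz2, a lysozyme of macrophages, showed the lowest fold change of all named genes, from 63.1 and 66.6 TPM to 8.85 and 9.05 TPM (-2.73, SE 0.079, adjusted p = 2.33e-07). Of the 13, 7 averaged under 1 TPM at 144 h and passed the filter through the 72 h libraries alone, among them Csf1r, the receptor that macrophages need for survival, at 3.34 and 3.57 TPM and 0.453 and 0.507 TPM. In KH cells all 15 macrophage markers were called lower (median -2.34). The difference between the lines was called for 13 of the 15, each higher in DNMT3ABKO cells, with markers under 1 TPM among them. Lyz2 and the cathepsin Ctss were among the 13 (difference 1.69, adjusted p = 6.03e-05, and difference 1.21, adjusted p = 0.00489). Ptprc, the pan-leukocyte antigen, did not reach a mean of 1 TPM. Among the called members, 2 of the fibroblast list and 1 of the smooth muscle list also averaged under 1 TPM at one of the times. The calls of all these markers under 1 TPM are no support for a change. The part of these cell types in other results was not tested.

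**Figure D2:**
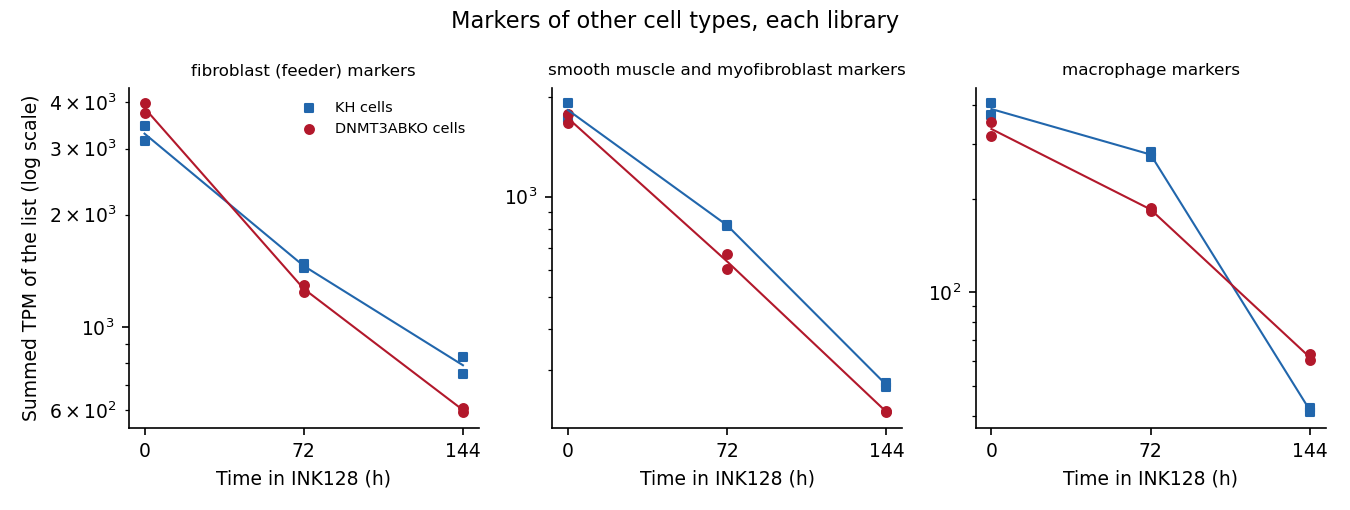
Summed TPM of fibroblast, smooth muscle and macrophage markers (log scale) against time in INK128, with 1 point per library and a line through the mean of the 2 libraries of a time. In DNMT3ABKO cells each sum falls between 72 and 144 h without overlap, to between 60.29 and 63.17 TPM for macrophage markers and between 591.9 and 609.2 TPM for fibroblast markers.

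All but D13Ertd608e of the 8 named genes with the highest fold change were on the list of 2-cell-like genes. ES cells enter the 2-cell-like state rarely, and genes of the cleavage-stage embryo are transcribed in it. All 34 listed genes were tested, 33 were called higher, none lower, and the median was 2.04, against 10.2% of all genes called higher and a median of -0.056. The list was chosen with earlier results of these data known, so these values describe it and do not test it. Of the 33, 3 averaged under 1 TPM at 72 h and passed the filter through the 144 h libraries alone. Their summed level was 337.5 and 330.3 TPM at 72 h and 1564 and 1644 TPM at 144 h, or 4.8 times the 72 h level, after 121.0 and 137.6 TPM at 0 h. KH cells held 3.708 and 3.593 TPM at 72 h and 21.46 and 17.57 TPM at 144 h, or 5.35 times the 72 h level, from a far lower level. All DNMT3ABKO values at 144 h lay above all at 72 h, and all at 72 h above every KH library. Across all tested genes, 70.7% had libraries of the 2 times that did not overlap. An exact two-sided permutation test of the sums cannot go below p = 0.33 with 2 libraries against 2, and that was its value. Leaving out any 1 of the 4 libraries left 32 or 33 genes called higher. Whether the step differed between the lines could not be settled, since 2 of the 34 genes averaged at least 1 TPM in the KH libraries of 72 and 144 h. On the log2(TPM + 1) scale 33 differences were called, each higher in DNMT3ABKO cells, but with a pseudocount of 0.1 TPM 6 were called and 8 of the 34 were below 0.

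The Zscan4 cluster encodes SCAN domain zinc finger proteins that act in telomere maintenance and mark the 2-cell-like state. Zscan4f (ENSMUSG00000070828.10, mm10 chr7:11397915-11402318) was the most abundant, at 47.5 and 45.7 TPM at 72 h and 222 and 232 TPM at 144 h. Zscan4c went from 30.6 and 30.2 TPM to 141 and 149 TPM and rose by 2.22 (SE 0.12, adjusted p = 8.76e-07). Zscan4d rose by 2.26 (adjusted p = 7.39e-07) and Zscan4e rose by 2.33 (adjusted p = 8.76e-07). In KH cells Zscan4f went from 0.216 and 0.305 TPM to 2.64 and 2.37 TPM and Zscan4d from 0.0569 and 0.0807 TPM to 1.22 and 1.15 TPM. The ratio of the TPM means at 144 over 72 h was 9.63 for Zscan4f and 17.2 for Zscan4d in KH cells, against 4.86 and 4.96 in DNMT3ABKO cells, whereas on the log2(TPM + 1) scale the step was higher in DNMT3ABKO cells by 0.78 and 1.23. With a pseudocount of 0.1 TPM these differences turned to -0.585 and -0.623 and were not called (adjusted p = 0.287 and 0.337), so no direction is given. The only tested member of the list that was not called was Zfp750 (0.39, adjusted p = 0.146), named after its values were seen. Members of the cluster are near copies of each other, so reads could be split between them and the value of a single member is uncertain.

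How alike these copies are can be seen in the 250 bases before the start sites of 2 of them, from RefSeq on GRCm38.p6, shown because they lie on opposite strands of the cluster and their genes rose by nearly the same amount (the step was 2.21 for Zscan4b, named after its values were seen). The sequences run 5′ to 3′ on the strand of the gene, on the minus strand at chr7:10905051-10905300 and on the plus strand at chr7:11397665-11397914, and capitals mark the 13 positions at which they differ. The other 237 of 250 bases were identical.
Zscan4b: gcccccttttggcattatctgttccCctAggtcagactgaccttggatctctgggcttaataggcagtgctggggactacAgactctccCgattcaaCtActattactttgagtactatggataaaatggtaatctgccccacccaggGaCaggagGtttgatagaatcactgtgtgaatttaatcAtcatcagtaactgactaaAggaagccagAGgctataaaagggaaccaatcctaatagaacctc
Zscan4f: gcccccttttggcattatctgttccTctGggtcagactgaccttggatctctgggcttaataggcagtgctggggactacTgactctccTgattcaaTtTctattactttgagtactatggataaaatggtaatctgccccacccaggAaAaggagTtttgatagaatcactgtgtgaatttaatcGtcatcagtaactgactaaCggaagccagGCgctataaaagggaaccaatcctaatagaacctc

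The Usp17l genes encode a family of deubiquitinating enzymes that is also near-identical in sequence. Usp17lb had the highest fold change among named genes, from 5.76 and 6.11 TPM at 72 h to 37.7 and 41.0 TPM at 144 h (2.54, SE 0.12, adjusted p = 7.41e-07). In KH cells it was at 0 and 0.0695 TPM and 0.161 and 0.397 TPM. The genes of this paragraph averaged under 1 TPM in the KH libraries of 72 and 144 h and were tested because DNMT3ABKO cells express them, so their levels in KH cells are given in place of a test of the difference. Usp17la rose by 2.12 and Usp17le rose by 2.23. Zfp352, a zinc finger gene of the 2-cell embryo, went from 2.28 and 2.05 TPM to 12.6 and 13.7 TPM (2.16, adjusted p = 1.08e-06), with no value above 0.144 TPM in the KH libraries of 72 and 144 h. Sp110, a nuclear body protein, went from 1.92 and 2.35 TPM to 12.3 and 11.4 TPM, against 0.116 and 0.171 TPM and 0.143 and 0.106 TPM in KH cells. Tcstv3, a gene of 2-cell-like cells, went from 4.26 and 4.81 TPM to 21.1 and 22.6 TPM (2.05, adjusted p = 2.50e-06). BB287469 rose by 2.24 to 40.0 and 43.7 TPM, against 0.158 and 0.0844 TPM and 0.592 and 0.646 TPM in KH cells. The predicted gene Gm5662, the second most changed of the list, rose by 2.35 to 116 and 123 TPM, against 0.0544 and 0.142 TPM and 1.2 and 1.2 TPM in KH cells. D13Ertd608e, outside the list, went from 1.63 and 2.73 TPM to 15.9 and 17.8 TPM, and in KH cells it was listed at 0 in both libraries of 72 h. Duxf3, a copy of the Dux gene that was named after its values were seen, went from 3.38 and 3.88 TPM to 8.55 and 9.0 TPM (1.08, adjusted p = 4.09e-05) against 0.0256 and 0.0556 TPM and 0.177 and 0.0834 TPM in KH cells. The binding element of Dux, the factor that opens 2-cell-like genes, was searched by its consensus on both strands of the RefSeq promoters (250 bases before to 50 after a start). It was in none of the 21 listed genes with a promoter in the table, against 0.0407% of 27025 genes with one. No match says only that these letters are not in these windows.

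**Figure D3:**
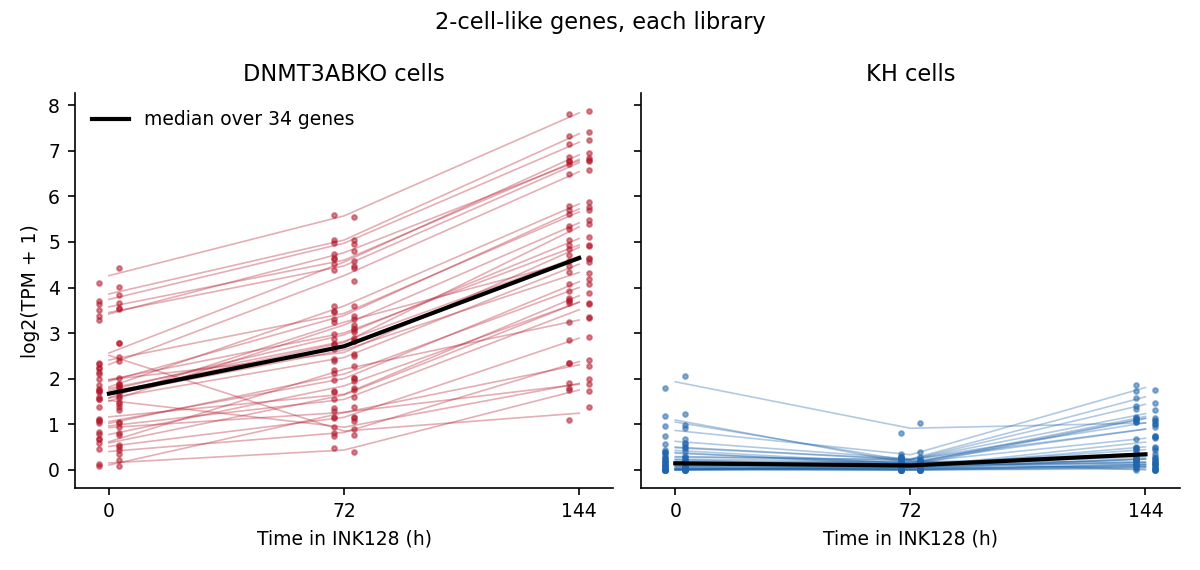
log2(TPM + 1) of the 34 2-cell-like genes against time in INK128 in DNMT3ABKO cells (left) and KH cells (right), with 1 point per gene and library, a thin line through the mean of each gene and a thick line through the median of the genes. In DNMT3ABKO cells the lines rise at the late step, by a median of 2.04. In KH cells most genes stay near or under 1 TPM, where the scale compresses changes.

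By gene type, unprocessed pseudogenes were called higher for 70 and lower for 10 of 166 tested, in contrast to 1202 higher and 2593 lower of 12488 protein-coding genes.

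Germline genes, which depend on promoter methylation for silence in somatic cells, showed no common direction in the late step. Of 22 tested germline genes, 6 rose and 5 fell, with a median of -0.006, and with 1 library left out 4 or 5 rose and 3 fell. Stra8, which drives meiotic entry, went from 30.3 and 28.9 TPM at 72 h to 81.7 and 86.1 TPM at 144 h and rose by 1.47 (SE 0.12, adjusted p = 1.35e-05). The rise was smaller than in KH cells (difference -0.72, adjusted p = 0.0353), where Stra8 went from 3.07 and 3.47 TPM to 18 and 18.8 TPM. Dazl, an RNA-binding protein of germ cells, was at 67.2 and 59.8 TPM and 60.4 and 70.9 TPM (adjusted p = 0.898) and Mael, a piRNA pathway protein, at 12.9 and 11.7 TPM and 11.8 and 11.3 TPM (adjusted p = 0.775). The libraries of the 2 times overlapped for both genes, and neither was called. Tuba3b, a germ cell tubulin, rose by 0.82 from 2.8 and 2.31 TPM to 4.94 and 5.64 TPM while its near copy Tuba3a fell by 0.59 from 47.3 and 48.1 TPM to 33.8 and 29.0 TPM. The call of Tuba3b was lost with a pseudocount of 0.1 TPM (adjusted p = 0.0592). Tdrd12, which acts in piRNA production, fell the most, from 70.5 and 69.5 TPM to 28.2 and 31.9 TPM (-1.20, adjusted p = 2.93e-06), and further than in KH cells (difference -0.72, adjusted p = 0.00301). Of 25 meiosis genes 3 rose and 4 fell (1 or 2 rose with a library left out). Meioc, which sustains meiotic prophase, rose by 0.77 and Hormad2, a protein of the chromosome axis, fell by 0.97 from 5.78 and 5.81 TPM to 2.11 and 2.9 TPM. The E-box CACGTG, a palindrome that PRC1.6 subunits and other factors can read, was in a promoter of 13 of 26 germline genes (50%), against 8.09% of all genes with a promoter. The E2F element TTCCCGCC, searched on both strands, was in 5 of the 26 (19.2%), against 2.52% of all genes with a promoter.

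Rhox genes, an X-linked homeobox cluster that methylation silences, had 1 higher and 2 lower members among 7 tested, and 0 to 2 higher and 1 or 2 lower with a library left out. Rhox5, the best expressed, was at 533 and 416 TPM at 0 h, 183 and 178 TPM at 72 h and 37.7 and 38.1 TPM at 144 h, and fell by 2.22 in the late step (SE 0.13, adjusted p = 1.73e-06). In KH cells it fell from 33.0 and 35.5 TPM to 7.95 and 5.79 TPM, and the difference between the lines was not called (adjusted p = 0.948). Rhox6 fell by 0.91 from 6.36 and 6.5 TPM to 3.89 and 2.18 TPM, a call that was lost without the second library of either time in DNMT3ABKO cells (adjusted p = 0.0517 at 72 h and 0.0755 at 144 h). Rhox9 was at 2.45 and 2.76 TPM and 2.73 and 2.93 TPM (adjusted p = 0.581), after 56.4 and 49.0 TPM at 0 h.

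Of 18 factors of DNA methylation, Dnmt3a and Dnmt3b included, 1 rose and 5 fell, Dnmt3b among them (median -0.13). Dnmt1, which copies methylation at replication, was at 127 and 128 TPM at 72 h and 124 and 126 TPM at 144 h (adjusted p = 0.773). Its partner Uhrf1 was at 245 and 249 TPM and 226 and 228 TPM (adjusted p = 0.182). The demethylases Tet1, at 214 and 202 TPM and 176 and 176 TPM, and Tet2, at 74.2 and 70.6 TPM and 65.2 and 67.1 TPM, were not called (adjusted p = 0.192 and 0.573). The riser was Mbd4, a glycosylase of deaminated methylcytosine (0.35), and without any 1 of the 4 libraries its adjusted p lay between 0.0703 and 0.207. Of 26 Polycomb genes, 1 rose and 7 fell (4 or 5 with a library left out). Mtf2, a subunit that guides PRC2, rose by 0.46 (adjusted p = 0.00287), and Kdm2b, which guides PRC1 to unmethylated CpG islands, fell by 0.57 from 131 and 141 TPM to 92.3 and 90.2 TPM, further than in KH cells (difference -0.51, adjusted p = 0.00682). The subunits of PRC1.6 that bind germline promoters, Mga (-0.49, adjusted p = 0.0649), E2f6 (-0.12, 0.419) and Pcgf6 (-0.24, 0.101), were not called. Of 23 factors that silence retroelements, 2 rose and 4 fell, near the 10.2% and 17.9% of all genes. Trim28, the corepressor of KRAB zinc finger proteins, was at 1250 and 1300 TPM and 1300 and 1270 TPM, whereas the H3K9 methyltransferases Ehmt2 and Ehmt1 fell by 0.57 and 0.59, Ehmt1 further than in KH cells (difference -0.45, adjusted p = 0.0397). Of 31 imprinted genes 4 rose and 9 fell (median -0.22), or 2 or 3 and 5 to 7 with a library left out. Peg10, a paternally expressed retrotransposon-derived gene, fell by 1.01 from 123 and 122 TPM to 60.2 and 60.2 TPM (adjusted p = 0.000255), and differed from KH cells by -1.14 (adjusted p = 0.00363). Igf2, a fetal growth factor that fibroblasts also express, fell by 0.94 from 7.01 and 7.46 TPM to 3.32 and 3.26 TPM, and Phlda2, a maternally expressed growth restrictor, rose by 0.86 from 45.0 and 45.5 TPM to 88.1 and 78.3 TPM.

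Naive pluripotency genes, of which 3 of 17 rose and 2 fell, had a median of 0.15, in contrast to -0.19 and 6 falls with no rise in KH cells. The difference was called for 6, each with a higher step in DNMT3ABKO cells. Esrrb, an orphan nuclear receptor of the naive network, went from 244 and 246 TPM at 72 h to 350 and 329 TPM at 144 h (0.47, SE 0.087, adjusted p = 0.00259), with a difference from KH cells of 0.63 (adjusted p = 0.0126). Nanog, which stabilises self-renewal, went from 191 and 180 TPM to 251 and 263 TPM (0.47, adjusted p = 0.0115) and differed by 0.62 (adjusted p = 0.0484), a difference that was not called with a pseudocount of 0.1 TPM (adjusted p = 0.0645). The call of its step was lost without the second library at 72 h (adjusted p = 0.0785) or at 144 h (0.0732) of DNMT3ABKO cells. Tcl1, a cofactor of the Akt kinase, rose by 0.56 from 40.5 and 42.4 TPM to 63.0 and 60.6 TPM, with a difference of 0.49 (adjusted p = 0.0149). The other members whose step differed, named here after their values were seen, were Prdm14 (difference 1.00, adjusted p = 0.00538), Tbx3 (0.77, 0.0183) and Dppa3 (0.69, 0.0199). Klf4, a reprogramming factor, was at 161 and 165 TPM and 148 and 158 TPM and was not called (adjusted p = 0.665). Gbx2, a LIF-responsive homeobox gene, fell by 0.87 from 72.7 and 69.3 TPM to 37.8 and 39.1 TPM (adjusted p = 0.000203) and also fell in KH cells. Under median-ratio scaling 9 naive genes were called higher and 2 lower. Of 18 general pluripotency genes 1 rose and 7 fell, with a median of -0.065. Utf1, a chromatin factor of undifferentiated cells, fell by 0.66 from 353 and 363 TPM to 230 and 224 TPM, further than in KH cells (difference -0.48, adjusted p = 0.0257), and Foxd3, a forkhead factor of the epiblast, fell by 1.20. The riser was Sox2, the partner of Pou5f1 (0.44, adjusted p = 0.0154), whose adjusted p lay between 0.0517 and 0.106 without either 72 h library or the second at 144 h.

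Formative and primed epiblast genes, which mark the way out of the naive state, fell for 10 of 17 and rose for 3 (median -0.35), against 5 falls and 7 rises (median 0.18) in KH cells. The difference was called lower in DNMT3ABKO cells for 6 members and higher for 1. Lef1, a Wnt effector of the formative state, went from 31.6 and 29.4 TPM at 72 h to 15.3 and 16.8 TPM at 144 h, and it fell by 0.89 (SE 0.090, adjusted p = 5.53e-05). In KH cells Lef1 rose from 18.1 and 17.8 TPM to 27.1 and 27.4 TPM, and the steps differed by -1.46 (adjusted p = 9.37e-05). Pou3f1, a POU factor of the epiblast, fell by 0.60 from 19.8 and 19.9 TPM to 12.8 and 12.8 TPM, with a difference of -0.97 (adjusted p = 0.00112). Otx2, which directs the exit from naive pluripotency, fell by 0.98 from 11.5 and 11.3 TPM to 5.11 and 5.48 TPM and also fell in KH cells (difference not called, adjusted p = 0.601). Lefty2, a Nodal antagonist, and Zic2, a zinc finger factor, rose by 0.92 and 0.68. Fgf5, the classical primed marker, did not reach a mean of 1 TPM.

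Early neural genes split, with 4 of 9 higher and 2 lower (median 0.24), against 6 higher and 1 lower in KH cells (median 0.76). Sox1, an early neural SOXB1 factor, went from 6.59 and 6.12 TPM at 72 h to 4.54 and 4.95 TPM at 144 h in DNMT3ABKO cells and from 5.66 and 5.5 TPM to 13.3 and 13.4 TPM in KH cells. The steps differed by -1.48 (SE 0.13, adjusted p = 0.0001). In DNMT3ABKO cells Sox1 fell by 0.36, a call that was lost without the first library of either time (adjusted p = 0.117 at 72 h and 0.116 at 144 h). Sox11, a neural SOXC factor, fell by 0.38 from 26.1 and 25.0 TPM to 19.4 and 19.5 TPM, lower than the step in KH cells (difference -0.74, adjusted p = 0.00138). Pax6, a regulator of eye and forebrain, rose by 1.29 from 5.28 and 5.55 TPM to 14.3 and 15.2 TPM (adjusted p = 0.000283), with no called difference (adjusted p = 0.801). Tubb3, a neuronal tubulin, rose by 1.06 from 34.3 and 36.6 TPM to 76.0 and 74.1 TPM, more than in KH cells (difference 0.81, adjusted p = 0.00228). Most listed neural genes (10 of 19) did not reach a mean of 1 TPM.

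**Figure D4:**
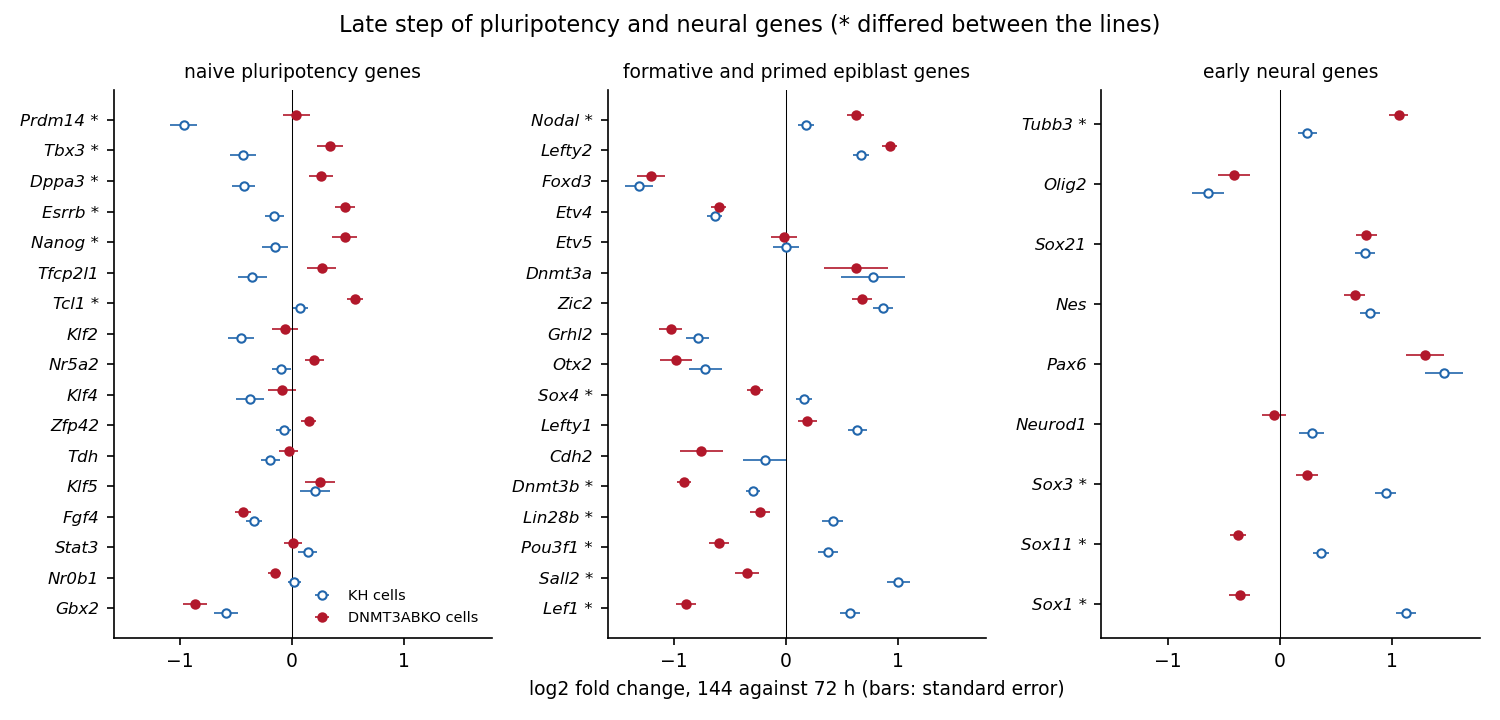
log2 fold changes at 144 against 72 h in KH cells (open blue) and DNMT3ABKO cells (filled red) for the tested naive, formative and early neural genes, with bars for the standard error and stars at genes whose step differed between the lines. Among starred genes the red points lie to the right for naive genes such as Esrrb and mostly to the left for formative and neural genes such as Lef1 and Sox1.

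Genes of other lineages were inspected as well. Of 5 tested genes of mesoderm and definitive endoderm 1 rose and 2 fell, or 1 and 1 with a library left out, and T (Brachyury), the mesoderm factor, did not reach a mean of 1 TPM. Of 9 primitive endoderm genes 2 rose and 5 fell. Lama1, a laminin chain, rose by 0.92 from 13.9 and 13.6 TPM to 26.9 and 26.9 TPM. Col4a2, a basement membrane collagen, and Dab2, an endocytic adaptor, fell by 1.49 and 1.26. Fibroblasts express both genes too, and their part in these falls was not tested. The defining factor Gata6 was at 1.17 and 1.3 TPM and 0.996 and 0.99 TPM (adjusted p = 0.449), and Gata4 did not reach 1 TPM. Of 12 trophoblast genes 2 rose and 3 fell. Tfap2c, an AP-2 factor of trophoblast and germ cells, went from 4.84 and 4.19 TPM at 72 h to 12.9 and 12.8 TPM at 144 h, after 42.0 and 52.9 TPM at 0 h, and rose by 1.33 (adjusted p = 3.33e-05). Its step was higher than in KH cells (difference 1.27, adjusted p = 0.0015). Gata3, a trophoblast factor, passed the filter through the 72 h libraries alone, at 1.91 and 2.27 TPM and 0.33 and 0.109 TPM. Of 7 endothelial markers 4 rose and 1 fell. Tie1, a receptor of endothelium, rose by 1.06 from 2.24 and 2.18 TPM to 5.75 and 5.66 TPM, and Pecam1, an adhesion receptor that ES cells also carry, rose by 0.57 from 17.8 and 17.1 TPM to 25.7 and 27.2 TPM (difference 0.59, adjusted p = 0.0363). Cdh5, the endothelial cadherin, did not reach 1 TPM. None of 5 tested Hox genes was called in DNMT3ABKO cells (limma).

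In the LIF and STAT3 pathway, which sustains naive cells through a cytokine receptor and its transcription factor, 1 of 20 genes rose and 8 fell (median -0.27). Stat3 itself was at 97.4 and 97.6 TPM at 72 h and 95.3 and 101 TPM at 144 h and was not called (adjusted p = 0.941), while its target and feedback inhibitor Socs3 fell by 0.45 from 90.7 and 89.7 TPM to 66.2 and 65.4 TPM (adjusted p = 0.00057). Among the receptors, Cntfr fell by 0.92 from 48.7 and 49.9 TPM to 26.6 and 24.7 TPM, whereas in KH cells it went from 25.5 and 23.3 TPM to 37.1 and 40.9 TPM (difference -1.57, adjusted p = 0.0016). Il6ra, the interleukin-6 receptor, was at 0.991 and 0.988 TPM and 2.56 and 2.49 TPM and passed the filter through the 144 h libraries alone. Osmr, a receptor that fibroblasts also express, fell by 1.52.

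In FGF and ERK signalling, which pushes ES cells out of the naive state, 3 of 23 genes rose and 9 fell (median -0.18). The immediate early factors Fos and Egr1 fell the most, Fos from 85.0 and 83.2 TPM to 21.1 and 21.8 TPM (-1.92, SE 0.092, adjusted p = 7.44e-07) and Egr1 from 182 and 174 TPM to 68.5 and 69.2 TPM (-1.36, adjusted p = 4.74e-06). Fosb, another subunit of the AP-1 factor and outside the list, fell by 2.38 from 55.1 and 54.3 TPM to 10.1 and 9.31 TPM. Of the feedback inhibitors of the pathway, Spry4 rose by 0.84 from 102 and 104 TPM to 185 and 186 TPM (adjusted p = 3.53e-05), Dusp5 rose by 0.69, and Dusp6 was at 137 and 129 TPM and 122 and 124 TPM (adjusted p = 0.321). The ligand Fgf4 fell by 0.44 from 139 and 141 TPM to 102 and 105 TPM. The fold changes of Fos and Egr1 in KH cells were -1.79 and -1.55, and no difference was called for either.

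In the Wnt pathway 1 of 17 genes rose and 7 fell (median -0.24). Axin2, a direct target and inhibitor, fell by 0.88 from 28.4 and 30.1 TPM to 15.7 and 15.1 TPM (adjusted p = 9.99e-05). Porcn, which acylates Wnt ligands for secretion, rose by 0.69 from 41.6 and 41.2 TPM to 66.5 and 68.0 TPM, with a difference of 0.53 (adjusted p = 0.0403). Wnt8a, a ligand outside the list that passed the filter through the 72 h libraries alone, was at 2.2 and 2.5 TPM and 0.55 and 0.452 TPM, against 1.16 and 1.07 TPM and 2.34 and 2.54 TPM in KH cells. Of 25 genes of BMP, Id and Nodal signalling 3 rose and 12 fell (median -0.33), or 8 or 9 with a library left out. Bmp4, a ligand, fell by 1.13 from 28.2 and 29.0 TPM to 12.6 and 12.5 TPM, and Smad6, an inhibitor of the pathway, fell by 1.12. Id3, a BMP target, fell by 0.38, less than in KH cells (difference 0.62, adjusted p = 0.00493), while Id1 rose by 0.77. Nodal rose by 0.62 from 66.6 and 71.4 TPM to 105 and 108 TPM, more than in KH cells (difference 0.45, adjusted p = 0.0284). Among 15 retinoic acid genes 3 rose (2 to 4 with a library left out) and 5 fell. Aldh1a2, which makes retinoic acid, rose by 1.08 from 2.21 and 2.5 TPM to 6.08 and 6.11 TPM (difference 0.85, adjusted p = 0.0144), and Rxrg, a receptor, fell by 0.72 (difference -0.77, adjusted p = 0.0143).

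The other named genes with the lowest differences were not in these lists. Prtg, an immunoglobulin superfamily receptor of the early embryo, went from 9.52 and 9.05 TPM to 3.48 and 3.47 TPM in DNMT3ABKO cells and from 6.78 and 6.58 TPM to 18.8 and 16.4 TPM in KH cells. The lines moved in opposite directions without overlap, and the steps differed by -2.47 (SE 0.16, adjusted p = 5.64e-05). Car4, a membrane carbonic anhydrase, went from 8.27 and 9.33 TPM to 2.7 and 2.59 TPM against 7.5 and 7.17 TPM to 13.6 and 11 TPM in KH cells (difference -2.09, adjusted p = 8.16e-05). Ccdc194 fell by 2.50 from 11.4 and 11.4 TPM to 0.843 and 1.6 TPM (difference -2.08, adjusted p = 0.000679).

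Of 25 glycolysis genes 10 rose and 6 fell (median 0.19), against 17 and 2 in KH cells (median 0.41), and the 8 called differences were all lower in DNMT3ABKO cells. Slc2a1, the basal glucose transporter, went from 69.9 and 67.0 TPM at 72 h to 176 and 172 TPM at 144 h and rose by 1.33 (SE 0.062, adjusted p = 6.87e-07), with a fold change of 1.44 in KH cells and no called difference (adjusted p = 0.62). Slc2a3, a high-affinity transporter, rose by 1.11 to 321 and 337 TPM. Ldha, which turns pyruvate into lactate, rose by 0.39 from 196 and 195 TPM to 254 and 257 TPM, less than in KH cells (difference -0.69, adjusted p = 0.00108). Pfkm and Eno3, muscle-type isoenzymes, fell by 1.21 and 0.83, both further than in KH cells (difference -0.76, adjusted p = 0.00796, and difference -0.61, adjusted p = 0.0107). Pdk1, which closes the entry of pyruvate into mitochondria, fell by 0.82 from 116 and 112 TPM to 63.3 and 64.2 TPM (difference -0.75, adjusted p = 0.000702).

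Sterol synthesis genes, the targets of SREBP, had 2 higher and 1 lower of 24 (median 0.046), against 11 higher and none lower in KH cells (median 0.31), with 3 differences, each lower in DNMT3ABKO cells. Without 1 of the 4 libraries 1 member was higher and none lower, and under median-ratio scaling 7 were higher and 2 lower. Hmgcs1, an early enzyme of the pathway, was at 62.8 and 56.0 TPM and 64.8 and 64.8 TPM and was not called. The sterol regulatory element TCACNCCAC, searched on both strands, was in a promoter of 1 of 17 genes of the list (5.88%) and 1.44% of all genes with a promoter. Of 17 fatty acid genes 1 rose and 4 fell (1 or 2 fell with a library left out). Scd2, a desaturase, was at 64.1 and 63.1 TPM and 60.5 and 62.1 TPM against 64.7 and 64.2 TPM and 109 and 105 TPM in KH cells (difference -0.77, adjusted p = 0.0045), and Fasn, the fatty acid synthase, differed by -0.47 (adjusted p = 0.0333). Of 16 one-carbon and serine genes 2 rose and 2 fell (1 or 2 and 1 with a library left out), and Phgdh, the first enzyme of serine synthesis, was at 27.5 and 29.2 TPM and 25.6 and 24.3 TPM (difference -0.52, adjusted p = 0.0233). None of 68 nuclear-encoded oxidative phosphorylation genes rose and 3 fell (1 with a library left out, when up to 1 rose), and none of 15 genes of the mitochondrial genome was called by limma.

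Few genes of protein synthesis were called. None of 75 cytosolic ribosomal protein genes was called (limma), and the summed level was 110600 and 111800 TPM at 72 h and 114000 and 114500 TPM at 144 h. Of 51 ribosome assembly genes 2 rose and 2 fell (0 or 1 and 1 or 2 with a library left out), and of 44 translation factors 1 rose and none fell, the riser being lost or kept according to the library left out (0 or 1). Of 77 mitochondrial ribosomal protein genes 3 rose and 16 fell (median -0.068), or 7 or 8 with a library left out, against 17.9% of all genes. Myc, which drives growth genes, fell by 0.60 from 125 and 126 TPM to 82.1 and 82.7 TPM (SE 0.061, adjusted p = 5.81e-05), after 38.2 and 35.4 TPM at 0 h, with a fold change of -0.58 in KH cells. Of 13 Myc family genes 1 rose and 2 fell (0 or 1 and 1 or 2 with a library left out). Mycn, its relative, was at 101 and 101 TPM and 92.7 and 91.5 TPM (adjusted p = 0.133). Of 41 mTOR pathway genes 7 rose (4 to 6 with a library left out) and 3 fell. The kinase gene Mtor was at 36.4 and 37.3 TPM and 39.8 and 37.9 TPM and Rptor, the scaffold of mTORC1, at 30.2 and 29.3 TPM and 32.0 and 30.5 TPM (neither called). The regulators Sesn2, a leucine sensor, and Flcn, a GAP of the Rag GTPases, rose by 0.69 and 0.49 (adjusted p = 0.000309 and 0.000407), and Castor1, the arginine sensor, fell by 0.44.

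Of 26 Atf4 target and amino acid stress genes 7 rose (4 or 5 with a library left out) and 5 fell. Ddit3, a proapoptotic factor of the integrated stress response, rose by 1.05 from 10.8 and 11.2 TPM to 20.6 and 27.8 TPM (adjusted p = 0.000626). Atf4 was at 263 and 262 TPM and 238 and 240 TPM (adjusted p = 0.0915), and Asns, asparagine synthetase, at 100 and 99.1 TPM and 95.4 and 98.3 TPM (adjusted p = 0.792). Nupr1, a stress-induced chromatin protein, fell by 1.15 from 6.41 and 6.47 TPM to 2.79 and 1.96 TPM. The amino acid response element TGATGNAA, searched on both strands, was in a promoter of 10 of 28 genes of the list (35.7%), against 4.51% of all genes with a promoter. Of 20 tRNA synthetase genes 5 rose and 1 fell (3 or 4 and 0 or 1 with a library left out), led by Cars (0.59) and Iars (0.57).

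Lysosome genes rose in 12 and fell in 5 of 52 (median 0.073), against 3 and 9 in KH cells (median -0.11), and the 5 called differences were all higher in DNMT3ABKO cells. Macrophage markers also fell less in DNMT3ABKO cells, and the part of macrophages in these differences was not tested. The counts depended on single libraries, with 4 or 5 higher and 0 to 2 lower when 1 was left out. Ctsd, the main aspartic protease, was at 186 and 184 TPM at 72 h and 205 and 211 TPM at 144 h (0.17, adjusted p = 0.13), with a difference from KH cells of 0.49 (adjusted p = 0.0229). Tpp1, a lysosomal peptidase, rose by 0.47 from 33.9 and 33.0 TPM to 46.3 and 46.9 TPM (adjusted p = 0.00387). Lamp1, the main membrane glycoprotein, went from 216 and 206 TPM to 261 and 283 TPM (0.36, adjusted p = 0.0203), and its call was lost without either 72 h library (adjusted p = 0.0639 and 0.118) or the second 144 h library (0.132) of DNMT3ABKO cells. Tfe3 and Tfeb, which mTORC1 holds in the cytoplasm, bind E-boxes of lysosomal genes. The letters CACGTG were in a promoter of 15 of 41 lysosomal genes (36.6%), against 8.09% of all genes with a promoter. Of the 15, Sgsh was not tested, and 7 were called higher and 1 lower, beside 12 and 5 of the 52 tested in the list. Those list counts depended on single libraries, and a part of the letters in the calls was not tested. The 150 bases before the start of Lamp1 (RefSeq, GRCm38.p6, chr8:13159011-13159160, plus strand) are shown because they hold 4 such matches, in capitals. A match is a description of letters and not of binding.
Lamp1: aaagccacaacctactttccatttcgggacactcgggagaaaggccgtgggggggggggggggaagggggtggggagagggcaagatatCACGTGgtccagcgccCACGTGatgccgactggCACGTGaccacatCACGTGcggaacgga

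Of 40 autophagy genes 8 rose (4 or 5 with a library left out) and 4 fell (median 0.099). The receptor Sqstm1, which carries ubiquitinated cargo, went from 132 and 132 TPM at 72 h to 209 and 198 TPM at 144 h and rose by 0.62 (SE 0.062, adjusted p = 5.12e-05). In KH cells it was at 112 and 111 TPM and 108 and 107 TPM, and the steps differed by 0.68 (adjusted p = 0.000926). Calcoco2, a receptor for bacteria and mitochondria, rose by 1.13 from 2.16 and 2.04 TPM to 5.96 and 5.64 TPM, after 80.7 and 89.9 TPM at 0 h, with a difference of 1.40 (adjusted p = 0.000661). Optn, another receptor, fell by 0.93 from 14.7 and 15.9 TPM to 7.31 and 7.78 TPM, with a difference of -0.81 (adjusted p = 0.00172). Map1lc3b, which forms the autophagosome membrane, was at 68.1 and 69.6 TPM and 86.0 and 86.5 TPM and was not called (adjusted p = 0.0555).

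Clustered histone genes, which are transcribed in S phase for new chromatin, rose for 45 of 53 with none lower (median 0.57), against 30 with none lower in KH cells (median 0.39). No difference between the lines was called for any of them by limma. Their sum was 16340 and 17410 TPM at 72 h and 25270 and 23860 TPM at 144 h, or 1.46 times the 72 h level. Without 1 of the 4 libraries 27 to 36 were called, with the lowest count without the first 72 h library of DNMT3ABKO cells. Hist1h1c, a linker histone, went from 158 and 162 TPM to 272 and 266 TPM and rose by 0.75 (SE 0.053, adjusted p = 5.06e-06). Hist2h4 and Hist1h4m, 2 H4 genes, rose by 0.79 each. Core histone genes are near copies of each other, so the value of a single gene is uncertain, and Hist2h2aa1 varied from 285 to 630 TPM across the 4 libraries without a call (adjusted p = 0.695). CCAAT, searched on both strands, was in a promoter of 41 of 49 histone genes (83.7%), against 41.1% of all genes with a promoter. Of those 41 genes 33 rose, beside 45 of 53 in the whole list, and the 8 members not called all held CCAAT. A part of CCAAT in the rise was not tested. Promoters of 2 linker histone genes are shown because both rose, Hist1h1b by 0.71 (named after its values were seen), and hold CCAAT in capitals (ATTGG on the other strand), 150 and 200 bases before the start (RefSeq, GRCm38.p6, chr13:23738657-23738806, plus strand, and chr13:21780626-21780825, minus strand).
Hist1h1c: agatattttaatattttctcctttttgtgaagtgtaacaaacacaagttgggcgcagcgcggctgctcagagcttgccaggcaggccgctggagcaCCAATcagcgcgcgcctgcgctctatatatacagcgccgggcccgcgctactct
Hist1h1b: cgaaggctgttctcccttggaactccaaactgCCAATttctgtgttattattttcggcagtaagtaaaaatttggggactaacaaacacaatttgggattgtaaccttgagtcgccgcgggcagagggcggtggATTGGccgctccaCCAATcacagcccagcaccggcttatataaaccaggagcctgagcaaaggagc

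Of 44 replication genes 3 rose and 6 fell (1 to 4 with a library left out). Mcm2, a helicase subunit, was at 221 and 226 TPM and 235 and 237 TPM, and Pcna, the sliding clamp, at 269 and 266 TPM and 312 and 324 TPM (neither called). Rrm2, the regulated ribonucleotide reductase subunit, fell by 0.35 from 114 and 113 TPM to 87.8 and 89.7 TPM, a call lost without the first library of either time (adjusted p = 0.0564 at 72 h and 0.0573 at 144 h). The E2F element was in a promoter of 6 of 35 replication genes (17.1%), against 2.52% of all genes with a promoter. Of 37 mitosis genes 13 rose and 1 fell (median 0.16), but 4 to 7 rose with a library left out, the fewest without the second 72 h library. Pttg1, securin, rose by 1.01 from 28.0 and 25.1 TPM to 56.8 and 52.3 TPM, more than in KH cells (difference 0.81, adjusted p = 0.00566), while Cdk1 (-0.15) and Ccnb1 (0.28), the mitotic kinase and its cyclin, were not called. Of 23 G1 cyclins and CDK inhibitors none rose and 5 fell. Ccnd1, cyclin D1, fell by 0.69 from 86.7 and 86.2 TPM to 52.5 and 53.7 TPM, further than in KH cells (difference -0.59, adjusted p = 0.00371), and its partner kinase Cdk6 fell by 0.90 (difference -0.58, adjusted p = 0.0284). Cdkn2b, an inhibitor that fibroblasts also express, fell by 0.99.

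Of 26 p53 targets 9 rose and 2 fell (median 0.14), or 6 or 7 and 0 to 2 with a library left out. Pmaip1, the BH3 protein Noxa, rose by 0.77 from 53.8 and 49.6 TPM to 85.9 and 91.3 TPM, more than in KH cells (difference 0.43, adjusted p = 0.023), while the p53 antagonist Mdm2 was at 63.2 and 63.5 TPM and 69.4 and 72.7 TPM and was not called (adjusted p = 0.101). Cdkn1a, the CDK inhibitor p21, fell by 0.40, a call lost without the first 72 h library (adjusted p = 0.0543). Of 18 oxidative stress genes under Nrf2 none rose and 9 fell (median -0.26), or 5 or 6 with a library left out. Nqo1, a quinone reductase, fell by 0.84 from 17.6 and 15.9 TPM to 9.07 and 8.78 TPM, and Fth1, the ferritin heavy chain, fell by 0.76 from 280 and 280 TPM to 169 and 162 TPM (adjusted p = 4.50e-06). The chaperones Hspa1a and Hspa1b rose by 1.23 and 1.08, whereas of 26 heat shock and unfolded protein genes 3 rose and 1 fell (2 and 0 with a library left out). Of 18 hypoxia genes 7 rose and 2 fell (6 and 1 or 2 with a library left out). P4ha2, a collagen prolyl hydroxylase, rose by 1.34 from 8.84 and 8.52 TPM to 22.7 and 24.2 TPM, more than in KH cells (difference 1.27, adjusted p = 0.000313), while Egln3, the oxygen sensor, was at 6.39 and 6.38 TPM and 4.51 and 4.66 TPM (difference -1.35, adjusted p = 0.00253).

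Of 19 interferon and MHC class I genes 3 rose (1 or 2 with a library left out) and 8 fell (median -0.36). B2m, the light chain of MHC class I, fell by 1.23 from 32.3 and 28.2 TPM to 12.3 and 12.3 TPM (adjusted p = 0.00242). Fibroblasts and macrophages carry it as well, and their part in its fall was not tested. Ifi27 fell by 1.06, less than in KH cells (difference 0.96, adjusted p = 0.00981), and Ifitm1, a membrane protein that ES cells express, rose by 0.75 from 69.0 and 68.4 TPM to 120 and 112 TPM (difference 0.67, adjusted p = 0.00213). Isg15, a sentinel of an interferon response, did not reach 1 TPM. Of 19 small noncoding RNA and pause release genes 3 rose and 2 fell (1 with a library left out). The 7SK RNA Rn7sk was at 41200 and 40400 TPM at 72 h and 42900 and 42700 TPM at 144 h, and Nelfa, a pausing factor, rose by 0.78 from 55.5 and 55.4 TPM to 94.8 and 96.8 TPM, more than in KH cells (difference 0.66, adjusted p = 0.0198). Of 19 Platr and other ES cell noncoding RNAs 2 rose and 9 fell (median -0.33), or 6 with a library left out. Platr14 fell by 1.08 from 79.7 and 89.7 TPM to 39.1 and 40.0 TPM, and Platr31 rose by 0.70 from 1.02 and 1.3 TPM to 2.21 and 2.81 TPM. Platr7 fell by 0.83, further than in KH cells (difference -0.49, adjusted p = 0.04). Of 36 proteasome genes 1 rose and 2 fell (none rose and at most 1 fell with a library left out), and of 14 Bcl2 family genes 1 rose and 3 fell.

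**Figure D5:**
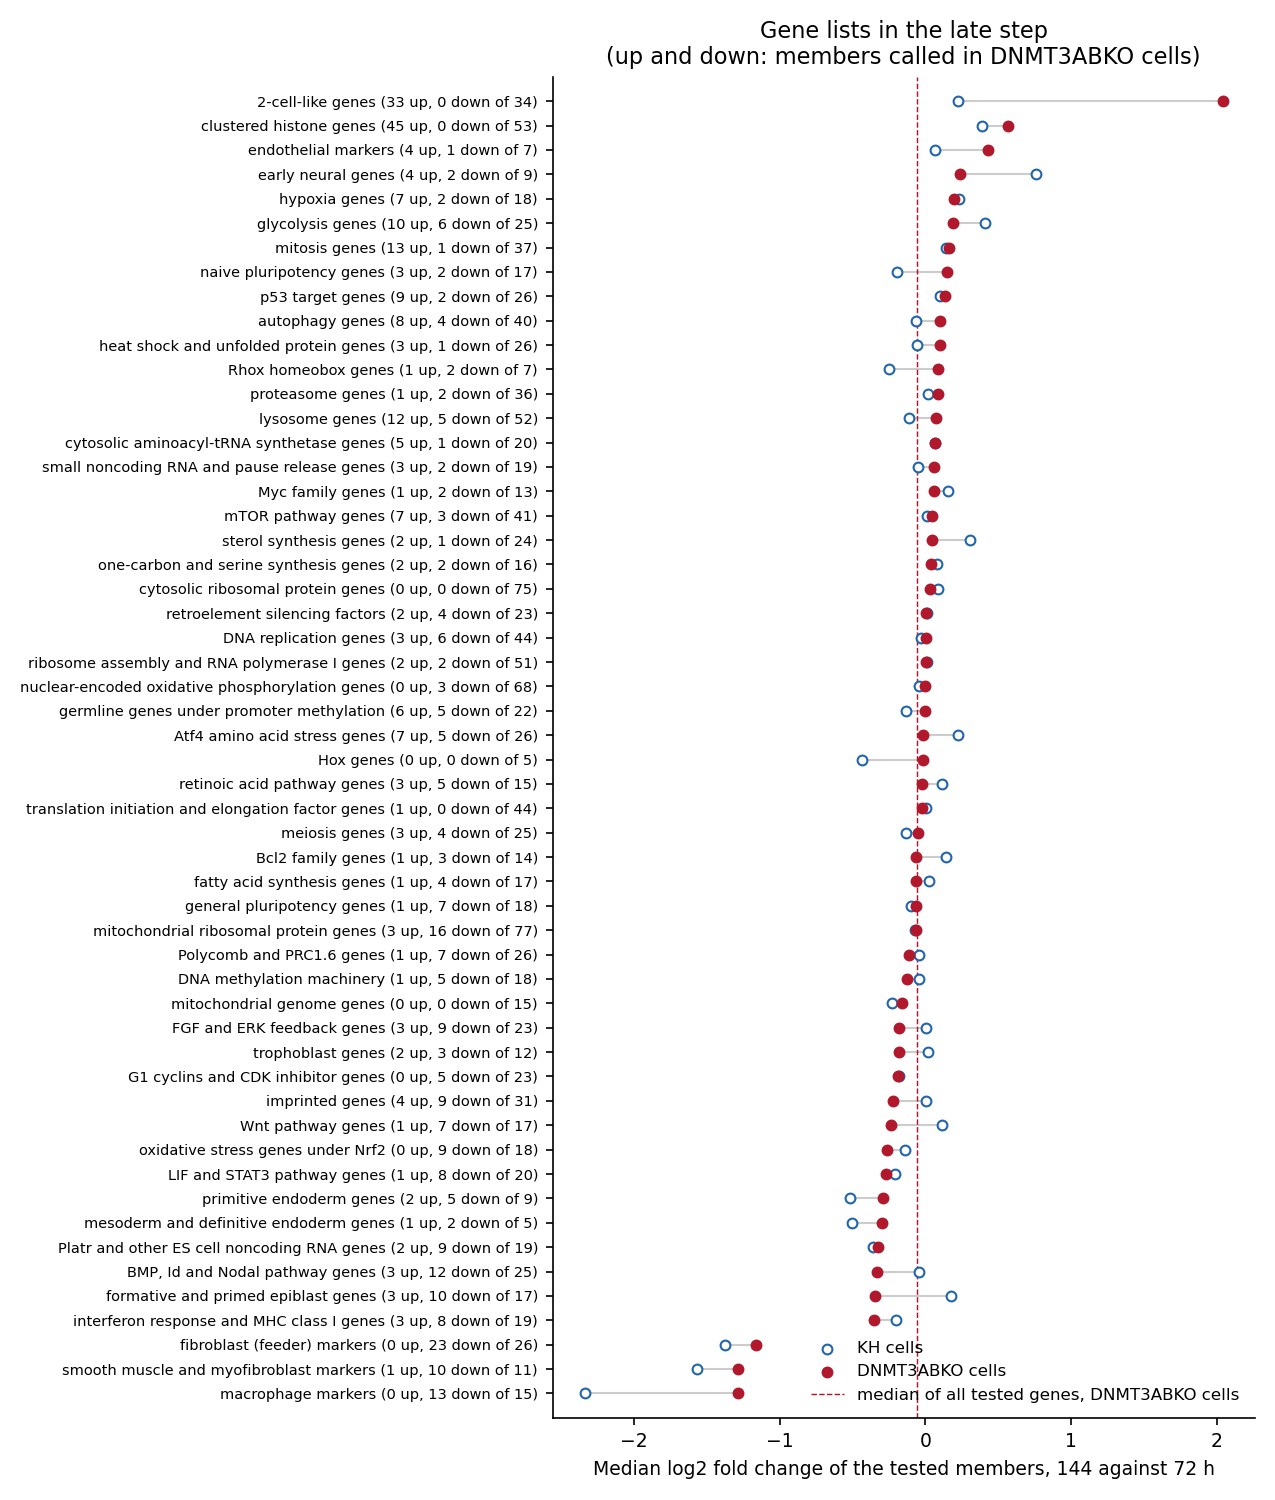
Median log2 fold change at 144 against 72 h over the tested members of each of the 54 lists, in KH cells (open blue) and DNMT3ABKO cells (filled red), with the number of members called up and down in DNMT3ABKO cells beside each name. The 2-cell-like list has the highest median, 2.04, and fibroblast, smooth muscle and macrophage markers lie lowest, at -1.16 to -1.29.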

How the data were processed

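RNA was measured by bulk sequencing in 12 libraries of mouse ES cells, 2 lines at 3 times with 2 libraries each. The authors deposited TPM per gene, made from reads that the submitters' processing notes tie to cutadapt 2.4, STAR 2.7.3a and StringTie 2.0 on mm10. ERCC spike-ins were added per the methods, but no spike row was used here and every deposited TPM column summed to 1000000, so the values are relative shares. TPM can hide a global change in RNA, and multicopy genes depend on how reads were shared.

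Rows that repeated a gene identifier (9 to 16 per library) were summed. Genes that averaged at least 1 TPM in the 4 libraries of the step were kept, a pseudocount of 1 TPM was added, and limma 3.58.1 (R 4.3.3) was fitted to log2 values of all 12 libraries with 6 group coefficients and an intensity trend, with Benjamini-Hochberg adjustment over all 15774 genes. Contrasts were 144 minus 72 h in each line and the difference between the lines. Tables and figures were made with Python 3.11.15, pandas 2.3.3, NumPy 2.4.6 and matplotlib 3.10.9, and the test was tested on simulated data. Promoters were from RefSeq on GRCm38.p6, and gene types from GENCODE, which matched 54409 of 54446 identifiers. Members and the 54 gene lists were chosen with earlier results of these data known. Named were Dnmt3a and Dnmt3b, the 8 highest and 8 lowest called fold changes with no overlap of libraries, the 4 highest and 4 lowest differences by the same rule (predicted genes, pseudogenes and small RNA genes left out of both), and for each list its key members and up to 2 called members at each end. Alternatives were the pseudocount, the filter, the scaling, the groups fitted, a replicate block, a fold minimum, each library left out, and 3 chosen after seeing the data.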

Additional observations from a re-analysis of the deposited data

Results flagged for a closer look

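The late step differed between the lines for 1035 of 15774 genes, by limma's test of the difference itself (adjusted p under 0.05). The values that follow are differences on the log2(TPM + 1) scale, the step in DNMT3ABKO cells minus that in KH cells, so that a positive value means a higher step in DNMT3ABKO cells. Each is a gene described above, and the cause of the differences was not tested. Of 74 described genes with a called difference, 19 are left out because they averaged under 1 TPM over the KH libraries of 72 and 144 h together, or under 1 TPM at one time in DNMT3ABKO cells, and so were tested through the libraries where they are high. Genes under 1 TPM at one time in KH cells were not left out. Among these are Zscan4e and Zscan4f at 72 h (means of 0.183 and 0.26 TPM) and Ifi27 at 144 h.

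Among 2-cell-like genes, the value was 0.97 for Zscan4e and 0.78 for Zscan4f, but no direction is given for either. The direction of both followed the pseudocount, since at 0.1 TPM the differences were -0.563 and -0.585 (adjusted p = 0.268 and 0.287), and the TPM ratio of 144 over 72 h was higher in KH cells, at 11.2 and 9.63 against 5.15 and 4.86. Among macrophage, smooth muscle and endothelial markers, the step was higher in DNMT3ABKO cells by 1.69 for Lyz2, 1.21 for Ctss, 0.86 for Acta2 and 0.59 for Pecam1. Among germline, imprinted and chromatin genes, the step was lower in DNMT3ABKO cells, with values of -1.14 for Peg10, -0.72 for Tdrd12, -0.72 for Stra8, -0.62 for Dnmt3b, -0.51 for Kdm2b and -0.45 for Ehmt1. Among pluripotency genes, the step was higher in DNMT3ABKO cells by 1.00 for Prdm14, 0.77 for Tbx3, 0.69 for Dppa3, 0.63 for Esrrb, 0.62 for Nanog and 0.49 for Tcl1, and lower, with values of -0.97 for Pou3f1 and -0.48 for Utf1. Among neural and other lineage genes, the step was higher in DNMT3ABKO cells by 1.27 for Tfap2c and 0.81 for Tubb3, and lower, with values of -1.48 for Sox1 and -0.74 for Sox11. Among signalling genes, the step was higher in DNMT3ABKO cells by 0.85 for Aldh1a2, 0.62 for Id3, 0.53 for Porcn and 0.45 for Nodal, and lower, with values of -1.57 for Cntfr, -1.46 for Lef1 and -0.77 for Rxrg. Among genes outside the lists, the step was lower in DNMT3ABKO cells, with values of -2.47 for Prtg, -2.09 for Car4 and -2.08 for Ccdc194. Among metabolic, lysosome and autophagy genes, the step was higher in DNMT3ABKO cells by 1.40 for Calcoco2, 0.68 for Sqstm1 and 0.49 for Ctsd, and lower, with values of -0.81 for Optn, -0.77 for Scd2, -0.76 for Pfkm, -0.75 for Pdk1, -0.69 for Ldha, -0.61 for Eno3, -0.52 for Phgdh and -0.47 for Fasn. Among cell cycle, stress and other genes, the step was higher in DNMT3ABKO cells by 1.27 for P4ha2, 0.96 for Ifi27, 0.81 for Pttg1, 0.67 for Ifitm1, 0.66 for Nelfa and 0.43 for Pmaip1, and lower, with values of -1.35 for Egln3, -0.59 for Ccnd1, -0.58 for Cdk6 and -0.49 for Platr7.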

How the results depend on the processing

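No named gene reversed its step in DNMT3ABKO cells where it was called in the main fit or in the alternative. Changes of sign of genes called in neither were not counted. Of 74 described genes whose step differed between the lines, 5 turned with a pseudocount of 0.1 TPM, none of them called there, to -0.358 for Gm5662, -0.487 for Zscan4c, -0.623 for Zscan4d, -0.563 for Zscan4e and -0.585 for Zscan4f, and a further 14 lost their call. With a mean of at least 1 TPM in both lines, chosen after seeing the data, 58 of the 74 were tested and 9 lost their call (Cdk6, Ehmt1, Fasn, Nanog, Nodal, Pecam1, Platr7, Porcn and Stra8), and between 17 and 21 of the 74 lost it when 1 library of 72 or 144 h was left out. In DNMT3ABKO cells the 4432 calls became 2840 with a mean of at least 5 TPM and 843 with an absolute log2 fold change of at least 1. They lay within 1.5 times the main count with a pseudocount of 0.1 TPM (4228), without a filter (5311), with median-ratio scaling (5391), with only the groups in the contrast (5862), and with 3 alternatives chosen after seeing the data, without the DNMT3ABKO group at 0 h (5946), with protein-coding and long RNA only (5553) and with a mean of at least 1 TPM in both lines (3765). With 1 library left out they ranged from 2825 to 5950. In KH cells the 3398 calls ranged from 1616 to 4874 with 1 library left out and became 421 with an absolute log2 fold change of at least 1. The 1035 differences between the lines ranged from 621 to 1712 with 1 library left out, and became 624 with a pseudocount of 0.1 TPM, 563 with a mean of at least 5 TPM, 2126 with only the groups in the contrast, 1710 without the DNMT3ABKO group at 0 h, 1625 with protein-coding and long RNA only, 399 with a mean of at least 1 TPM in both lines (154 higher and 245 lower, in place of 654 and 381), and 470 with an absolute log2 fold change of at least 1. The counts with a higher mean rest on fewer genes tested, and the cause of the other changes was not tested, including the higher counts without a library of DNMT3ABKO cells at 0 h, the group with the largest spread. Under median-ratio scaling 50.5% of calls in DNMT3ABKO cells were higher in place of 36.2%, and 45.4% in place of 32.8% in KH cells.

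Of 288 named genes with a test, between 36 and 42 lost their call when 1 of the 4 libraries of the step was left out, and 6 lost and 22 gained one under median-ratio scaling. A replicate block gave 4025 calls in DNMT3ABKO cells, 2896 in KH cells and 824 differences, and 15 named genes lost their call. The replicate numbers were not taken to pair the libraries, since the labels tie no number to a culture and the deviations of same-numbered libraries at 72 and 144 h correlated at -0.06 in DNMT3ABKO cells and 0.023 in KH cells. TPM keeps no depth, so how far depth limits low genes is unknown.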
